A study of Bos taurus with 28 samples.

Results

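Transcripts of 8 cell cycle genes were read from 9 probe sets in mammary biopsies of 28 Holstein-Friesian dairy cows, with 1 Affymetrix Bovine Genome Array per cow. The list held 10 genes, and a probe set was taken where the platform annotation gave it exactly 1 symbol from that list. UBE2C, CDK1 (also called CDC2), CCNB1, CCNB2, CCNA2, PCNA and RRM2 had 1 probe set each and BUB1 had 2, whereas TOP2A and MCM2 had none chosen by this rule and were not analysed here. These 9 stood among 24016 probe sets tested, which named 9155 genes. The groups were 4 KK cows (lysine on both alleles at the variable residue of DGAT1), 13 KA cows (1 lysine and 1 alanine allele) and 11 AA cows (alanine on both alleles). DGAT1 is the enzyme of the last step of triacylglycerol synthesis, and the series asks which transcripts differ with its genotype. All cows were in mid-lactation, were labelled as fed a control diet and gave a surgical biopsy of whole gland, so secretory, stromal, vascular and immune cells were hybridised together. In such bulk RNA, fewer cells of a type and less RNA per cell cannot be told apart.

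The cell cycle copies DNA in S phase and divides the cell in mitosis. Cyclins A and B rise before mitosis and switch on the kinase CDK1. The checkpoint holds the sister chromatids together until every chromosome is attached to the spindle, and the anaphase-promoting complex then marks the B cyclins for destruction. Most of these transcripts are made mainly in dividing cells, which is why their level is widely read as a measure of proliferation. In a gland at mid-lactation the secretory cells are mostly differentiated, and a low rate of cell division goes on beside their secretion.

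Values are log2 signals from which a baseline per probe set had already been subtracted, so 0 stands for that baseline and levels of different genes cannot be compared. A coarse class of signal could be inferred from the rounding steps of the values. PCNA was bright, at or above 8 log2 on most arrays. UBE2C, CDK1 and RRM2 were intermediate. CCNB1, CCNB2, CCNA2 and both BUB1 probe sets were dim, under 4 log2 on more than 7 of the 28 arrays (or in the baseline). Over all probe sets tested, 3889 were bright, 13922 intermediate and 6205 dim. Of the secretory markers of the tissue 13 of 16 probe sets were bright, among them those of the caseins CSN1S1, CSN1S2 and CSN3, the whey proteins LALBA and PAEP, and the milk fat globule protein BTN1A1.

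A pair of arrays, AA 2 and AA 9, stood apart before any gene was considered. Their SD over probe sets was 0.86 and 0.78, whereas the remaining 26 arrays spanned 0.21 to 0.35. The luminal secretory markers averaged -0.48 and -0.93 on them, and -0.21 to 0.14 elsewhere. That mean over 13 genes was not uniform. The milk genes were low, with BTN1A1 at -3.59 and -5.02 and LALBA at -0.71 and -1.81 in AA 2 and AA 9. The epithelial keratin KRT18 stood at 2.32 and 2.98 and the adhesion molecule EPCAM at 1.43 and 1.22. Other epithelial genes of the list were not high alike. The keratin KRT19 stood at 0.21 and 0.75, KRT8 at 0.12 and -0.39, and ELF5 at -1.42 and -1.19. Genotypes were also unevenly spread over the array numbers of the sample titles. All 4 KK, 2 KA and 8 AA arrays carried numbers 29 to 42, and 11 KA and 3 AA arrays carried 43 to 56. The labels do not say whether these numbers mark batches. For the members singly, differences from AA are given with and without AA 2 and AA 9 where leaving them out turned the sign or moved the value by over 1.5 times. For the further lists, slopes are given in this way as counts and for the leading genes. Of the members singly only the slope of UBE2C is given.

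None of the 9 probe sets differed between genotypes after adjustment. In limma, with Benjamini-Hochberg adjustment over all 24016 probe sets and a threshold of 0.05, 0 of 9 passed for KK minus AA, for KA minus AA, for KK minus KA and for the slope per K allele, beside a background of 0% of all probe sets in each of these comparisons. The smallest adjusted p among the 9 was 0.909 for KK minus AA, 0.216 for KA minus AA, 1.00 for KK minus KA and 0.526 for the slope. All 27 intervals (95%) of the pairwise differences lay within 1 log2 of 0 in either direction, with outermost bounds of -0.56 and 0.66. The genotypes overlapped in all 9 probe sets in each pair of groups. Intervals and overlaps were not counted over all probe sets, so neither count is read as a trait of these genes. At an unadjusted p under 0.05 there was 1 of 9 for KK minus AA (UBE2C, higher), beside 3.51% of all probe sets (2% higher and 1.51% lower). For KA minus AA it was 1 of 9 (a BUB1 probe set, lower), beside 21.8% (10.8% higher and 11.1% lower). For KK minus KA it was 0 of 9, beside 2.84% (1.44% higher and 1.39% lower). For the slope it was 1 of 9 (UBE2C, above 0), beside 9.16% (4.68% above and 4.48% below 0).

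**Figure D1:**
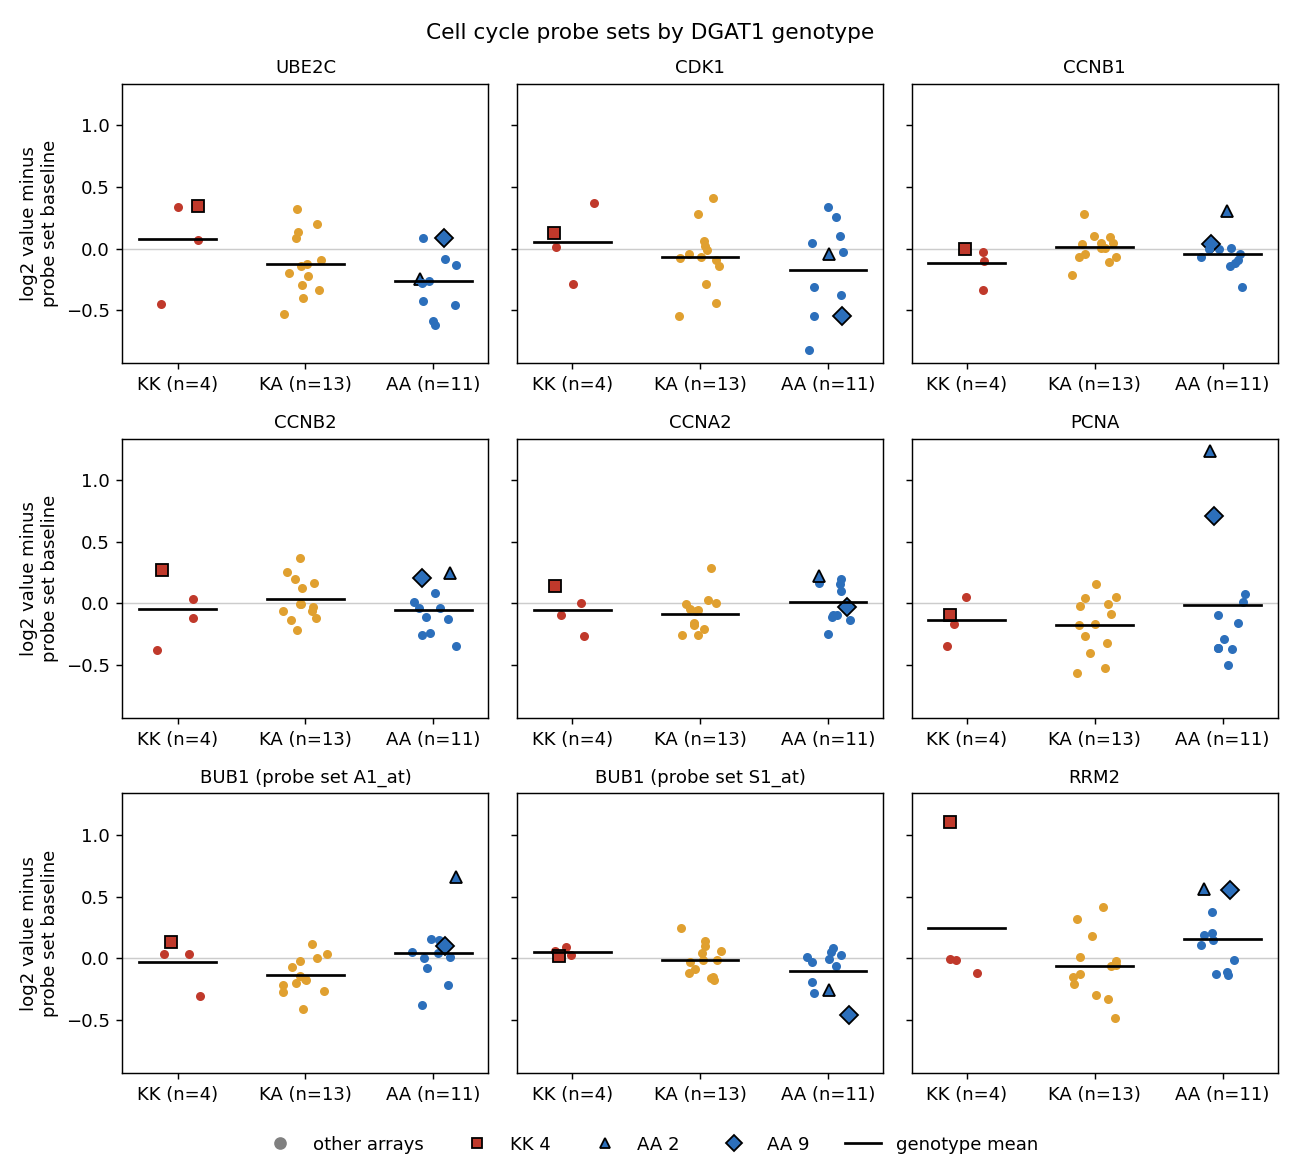
Log2 value minus probe set baseline of each of the 9 cell cycle probe sets, 1 panel each, for 4 KK, 13 KA and 11 AA cows; every point is 1 array and the line is the genotype mean. The genotypes overlap in every panel, and AA 2, AA 9 (PCNA at 1.23 and 0.71) and KK 4 (RRM2 at 1.10) are drawn with their own symbols.

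S phase was represented by PCNA, the sliding clamp that holds DNA polymerase on its template, and RRM2, the small subunit of ribonucleotide reductase, which makes deoxynucleotides. PCNA stood at -0.34, 0.05, -0.16 and -0.09 in KK 1 to KK 4. In KA cows its lowest, median and highest values were -0.56, -0.16 and 0.15, and in AA cows -0.50, -0.16 and 1.23. AA 2 at 1.23 and AA 9 at 0.71, or 2.35-fold and 1.64-fold of the baseline, lay above every other array, the next being KA 5 at 0.15. PCNA averaged -0.14 ± 0.17 in KK (SD, n = 4), -0.17 ± 0.23 in KA (SD, n = 13) and -0.01 ± 0.53 in AA (SD, n = 11), and -0.23 ± 0.19 in the 9 AA cows left without AA 2 and AA 9. KK minus AA was -0.13 (95% interval -0.56 to 0.30) with all arrays and 0.09 without that pair. KA minus AA was likewise -0.16 with all arrays and 0.05 without it, so the sign of both differences rested on these arrays.

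RRM2 stood at 1.10 in KK 4, or 2.15-fold of its baseline, and at -0.0012, -0.12 and -0.01 in KK 1, KK 2 and KK 3. Its lowest, median and highest values were -0.49, -0.07 and 0.41 in KA cows and -0.14, 0.15 and 0.56 in AA cows. KK 4 was the highest of all 28 arrays, followed by AA 2 at 0.56 and AA 9 at 0.55. The means were 0.24 ± 0.58 in KK (SD, n = 4), -0.06 ± 0.25 in KA (SD, n = 13) and 0.16 ± 0.25 in AA (SD, n = 11). KK minus KA was 0.30 (95% interval -0.05 to 0.66, limma adjusted p = 1.00), and 0.02 without KK 4. KK minus AA was 0.08 with all cows and -0.20 without KK 4. KK minus AA without AA 2 and AA 9 was 0.17, since the AA mean was then 0.07 ± 0.18 (SD, n = 9). KA minus AA was -0.22 (95% interval -0.47 to 0.03, limma adjusted p = 0.276) with all arrays and -0.13 without that pair, and 3 of 13 KA cows exceeded the AA mean while 5 lay below every AA cow.

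Of the mitotic kinase and its cyclins, CDK1 varied the most between cows. CDK1, the kinase that drives entry into mitosis, stood at 0.01, 0.37, -0.29 and 0.13 in KK 1 to KK 4. Its lowest, median and highest values were -0.55, -0.07 and 0.41 in KA cows and -0.82, -0.04 and 0.34 in AA cows. The group means ran 0.06 ± 0.27 in KK (SD, n = 4), -0.07 ± 0.26 in KA (SD, n = 13) and -0.18 ± 0.37 in AA (SD, n = 11), with AA 11 the lowest array at -0.82. KK minus AA was 0.23 (95% interval -0.13 to 0.59), and ran from 0.13 without KK 2 to 0.35 without KK 3. KA minus AA was 0.10 (95% interval -0.15 to 0.36, and 0.04 without AA 11). Within array numbers 43 to 56, KA minus AA was 0.46 (limma adjusted p = 0.0570), where the 3 AA arrays, AA 9, AA 10 and AA 11, stood at -0.54, -0.31 and -0.82. Many probe sets of the whole array passed in that range, as counted in the last section, while CDK1 did not. AA 9, which stood apart, was among its AA arrays. Within numbers 29 to 42 it was 0.10, from 2 KA and 8 AA cows.

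The cyclins showed narrow spreads. CCNA2, cyclin A2, which partners CDK2 in S phase and CDK1 in G2, stood at -0.09, -0.26, 0.00093 and 0.14 in KK 1 to KK 4, between -0.26 and 0.28 in KA cows (median -0.06) and between -0.25 and 0.23 in AA cows (median -0.03). CCNB1, cyclin B1, stood at -0.34, -0.03, -0.10 and -0.0029 in the KK cows, between -0.21 and 0.28 in KA cows (median 0.01) and between -0.31 and 0.30 in AA cows (median -0.04). CCNB2, cyclin B2, stood at 0.03, -0.38, -0.12 and 0.27 in the KK cows, between -0.22 and 0.37 in KA cows (median -0.0025) and between -0.34 and 0.25 in AA cows (median -0.04). The genotypes overlapped in each cyclin, with KK 1 the lowest array for CCNB1 and KK 2 the lowest for CCNA2 and CCNB2. KK minus AA was -0.06 for CCNA2, -0.08 for CCNB1 and 0.01 for CCNB2, with 95% intervals that reached no further than -0.26 and 0.24. KA minus AA was -0.09, 0.05 and 0.09 for the same genes, between bounds of -0.23 and 0.26. Single arrays moved these small values. KK minus AA without KK 4 was -0.13 for CCNA2, -0.12 for CCNB1 and -0.10 for CCNB2, and CCNB2 stood at 0.12 without KK 2. Without AA 2 and AA 9, KK minus AA was -0.04 for CCNA2, -0.03 for CCNB1 and 0.07 for CCNB2, and KA minus AA was 0.09 for CCNB1 and 0.15 for CCNB2.

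BUB1, a kinase of the spindle checkpoint, was read by a pair of probe sets that did not move together (Spearman's rho -0.04 over the 26 arrays without AA 2 and AA 9). The probe set whose name ends in A1_at stood at 0.03, -0.30, 0.04 and 0.13 in KK 1 to KK 4, at -0.41, -0.17 and 0.12 (lowest, median, highest) in KA cows and at -0.38, 0.04 and 0.66 in AA cows, with AA 2 as the highest array. Its KA minus AA difference was -0.18 (SE 0.08, 95% interval -0.35 to -0.01, limma unadjusted p = 0.0403, adjusted p = 0.216), and 1 of 13 KA cows exceeded the AA mean. It was -0.11 without AA 2 and AA 9, -0.04 within array numbers 29 to 42 and -0.26 within 43 to 56. KK minus AA for this probe set was -0.07 (95% interval -0.32 to 0.17) with all arrays. Without AA 2 and AA 9 the AA mean was -0.029, beside a KK mean of -0.026, so the negative sign rested on these arrays. The probe set whose name ends in S1_at stood at 0.09, 0.03, 0.06 and 0.02 in the KK cows, at -0.17, -0.01 and 0.25 in KA cows and at -0.45, -0.03 and 0.08 in AA cows. Its lowest array was AA 9, and AA 2 at -0.26 was among the 3 lowest, so AA 2 was highest for the one probe set and near the lowest for the other. KA minus AA was 0.09 for this probe set, opposite in sign, and KK minus AA 0.15 (95% interval -0.03 to 0.33). Without AA 2 and AA 9 these differences were 0.03 and 0.09, and KA minus AA was 0.05 without AA 9 alone. Both probe sets were dim, and no direction is given for BUB1 as a gene.

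UBE2C, the ubiquitin-conjugating enzyme of the anaphase-promoting complex, had the smallest p of the 9 probe sets for KK minus AA and for the slope. It stood at 0.33, 0.07, -0.45 and 0.35 in KK 1 to KK 4, at -0.53, -0.14 and 0.32 (lowest, median, highest) in KA cows and at -0.62, -0.26 and 0.09 in AA cows. Of the KK cows, 2 lay above every AA cow and 3 above the AA mean, and KK 3 lay below it. The means were 0.08 ± 0.37 in KK (SD, n = 4), -0.12 ± 0.25 in KA (SD, n = 13) and -0.27 ± 0.24 in AA (SD, n = 11). KK minus AA was 0.34 (SE 0.15, 95% interval 0.03 to 0.65, limma unadjusted p = 0.0318, adjusted p = 0.909), and it did not pass. The slope was 0.16 per K allele (SE 0.07, unadjusted p = 0.0261, adjusted p = 0.526). Without KK 4 the KK minus AA difference was 0.25 (unadjusted p = 0.146) and without KK 3 it was 0.52. It was 0.38 within array numbers 29 to 42 and 0.38 without AA 2 and AA 9. The pairs KA minus AA (0.14, 95% interval -0.07 to 0.36) and KK minus KA (0.20, 95% interval -0.11 to 0.50) had intervals that held 0, and KK minus KA was 0.11 without KK 4 and 0.37 without KK 3.

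**Figure D2:**
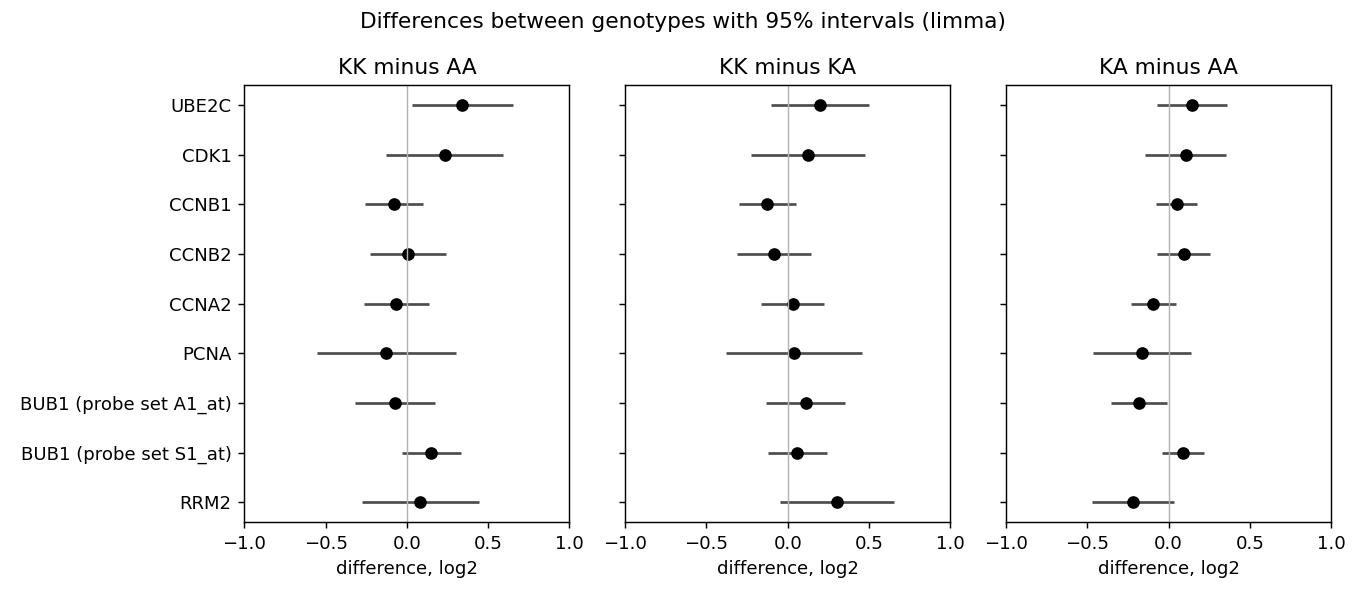
Difference in log2 value (x axis) for each of the 9 probe sets (y axis) in KK minus AA, KK minus KA and KA minus AA; the point is the limma estimate and the bar its 95% interval. The interval excludes 0 for UBE2C in KK minus AA (0.03 to 0.65) and for the BUB1 probe set A1_at in KA minus AA (-0.35 to -0.01), and neither passed after adjustment.

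Over the 8 genes, the median difference was small in each comparison. It was 0.02 for KK minus AA (all probe sets 0.0087), 0.0016 for KA minus AA (all probe sets 0.02), 0.06 for KK minus KA (all probe sets -0.0015) and -0.0068 per K allele (all probe sets 0.0090). Without AA 2 and AA 9 the medians were 0.08 for KK minus AA, 0.07 for KA minus AA and 0.04 per K allele. With 1 probe set per gene they were -0.03 for KK minus AA and -0.02 for KA minus AA. Without KK 4 the KK minus AA median was -0.11. The sign of the medians for KK minus AA and KA minus AA thus rested on a few arrays and on how BUB1 was counted. That of the median slope rested on a few arrays. The median for KK minus KA stayed above 0 without any 1 array, at 0.02 to 0.09. By probe set, 5 of 9 were higher in KK than in AA, beside 52.2% of all probe sets, and 7 of 9 without AA 2 and AA 9 but 3 of 9 without KK 4. It was 5 of 9 for KA against AA, beside 54.5% (6 of 9 without that pair), and 7 of 9 for KK against KA, beside 49.5% (6 of 9 without KK 4). The 4 genes outside the dim class, UBE2C, CDK1, PCNA and RRM2, had a median of 0.16 for KK minus AA with all arrays, 0.19 without AA 2 and AA 9 and 0.03 without KK 4. For KA minus AA their median was -0.03 with all arrays and 0.07 without that pair.

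Read array by array, the mean over the 8 genes separated a few cows from a narrow field. AA 2 had the highest mean at 0.31, followed by KK 4 at 0.25, KA 7 at 0.14 and AA 9 at 0.10. The lowest were AA 10 and AA 8, both at -0.24. By genotype the mean was 0.0039 ± 0.17 in KK (SD, n = 4), -0.07 ± 0.10 in KA (SD, n = 13) and -0.05 ± 0.15 in AA (SD, n = 11), and the ranges were -0.14 to 0.25, -0.18 to 0.14 and -0.24 to 0.31. Without KK 4 the KK mean was -0.08 ± 0.05 (SD, n = 3), and without AA 2 and AA 9 the AA mean was -0.11 ± 0.08 (SD, n = 9), so the order of the genotypes rested on these arrays. The high means were not built alike. In KK 4 all 9 probe sets lay above their own median over the arrays, in KA 7 it was 8 of 9, and in AA 2 and AA 9 it was 7 of 9 each. The exceptions were UBE2C in AA 2, CDK1 in AA 9 and the BUB1 probe set S1_at in both. AA 8 had 0 of 9 above the median, and AA 10, KA 6 and KA 10 had 1 each. With quantile normalization KK 4 had the highest mean at 0.27, followed by KA 7 at 0.17 and AA 2 at 0.11, so the top rank of AA 2 depended on the scaling.

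**Figure D3:**
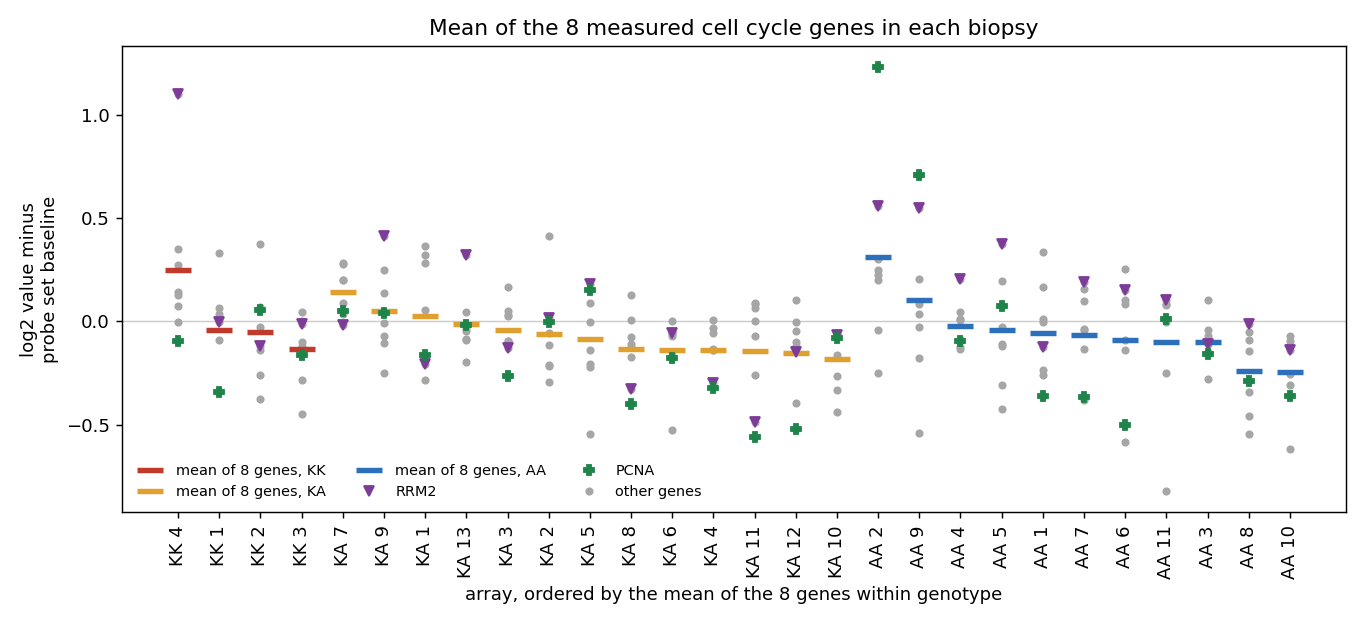
Log2 value minus probe set baseline (y axis) of the 8 measured cell cycle genes in each of the 28 arrays (x axis, ordered within KK, KA and AA by their mean); bars are the mean of the 8 genes, and RRM2 and PCNA have their own symbols. RRM2 stands out in KK 4 (1.10) and PCNA in AA 2 (1.23) and AA 9 (0.71), while the lowest means are those of AA 8 and AA 10 (-0.24).

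The S phase mean was high in KK 4, AA 2 and AA 9, from both genes in AA 2 and AA 9 and from RRM2 alone in KK 4, where PCNA lay at -0.09. PCNA and RRM2 together averaged 0.50 in KK 4, 0.89 in AA 2 and 0.63 in AA 9, and -0.52 to 0.23 in the other 25 arrays. The 6 mitotic genes averaged 0.16 in KK 4, 0.11 in AA 2 and -0.07 in AA 9, and -0.27 to 0.18 in the other 25. KA 7 was the reverse case, with the highest mitotic mean of all arrays at 0.18 and an S phase mean of 0.02. Without RRM2 the mean of the remaining genes in KK 4 was 0.12, below KA 7 at 0.16 and AA 2 at 0.27. Without PCNA instead, it was 0.30 in KK 4, 0.18 in AA 2, 0.15 in KA 7 and 0.02 in AA 9.

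Markers of other cells were high in the same 3 arrays, and their part in these values was not tested. T and natural killer cell markers (13 genes) averaged 0.58 in KK 4, 0.57 in AA 2 and 0.82 in AA 9, and by genotype ranged from -0.03 to 0.58 in KK, -0.39 to 0.13 in KA and -0.19 to 0.82 in AA. B and plasma cell markers (7 genes) averaged 1.24 in KK 4, 0.93 in AA 2 and 0.43 in AA 9, with ranges of -0.12 to 1.24, -0.55 to 0.38 and -0.26 to 0.93 in the 3 genotypes. Myeloid markers (11 genes) averaged 0.96, 0.76 and 1.44 in these arrays, with ranges of -0.10 to 0.96 in KK, -0.31 to 0.79 in KA and -0.37 to 1.44 in AA. In KK 4 all 7 B and plasma cell markers and all 11 myeloid markers lay above 0, and 11 of 13 T and natural killer cell markers did. MZB1, a plasma cell chaperone, stood at 2.73 there and the lysosomal macrophage protein CD68 at 1.55, against -0.38 to -0.01 and -0.69 to 0.02 in the other KK cows. The lists were less uniform in AA 2 and AA 9. Of the T and natural killer cell markers, 9 of 13 lay above 0 in AA 2 and 10 of 13 in AA 9. Of the B and plasma cell markers 5 of 7 did in each, and of the myeloid markers 9 and 10 of 11. The myeloid marker CD14 went the other way, at -1.43 in AA 2 and -1.59 in AA 9. Because baselines were subtracted, a marker at 0 does not mean an absent transcript.

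The epithelial and stromal sides differed between these arrays. Fibroblast and matrix markers (9 genes) averaged -0.28 in KK 4, 1.18 in AA 2 and 1.60 in AA 9, and ranged from -0.48 to -0.12 in KK, -0.46 to 0.20 in KA and -0.51 to 1.60 in AA. Luminal secretory markers averaged -0.05 in KK 4, within the range of the other 25 arrays. The 3′ minus 5′ signal of the GAPDH control probe sets, a sign of RNA or labelling quality, was -0.14 in KK 4, 1.33 in AA 2 and -0.66 in AA 9, and -0.59 to 0.97 in the others. The same measure from the actin control probe sets was 0.27, -0.14 and -0.21 in these 3 arrays, within the -0.28 to 0.46 of the others. Each control probe set had its own baseline subtracted, so these values compare shifts from baselines and are not ratios of 3′ to 5′ signal. The part of the GAPDH signal was not tested either.

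**Figure D4:**
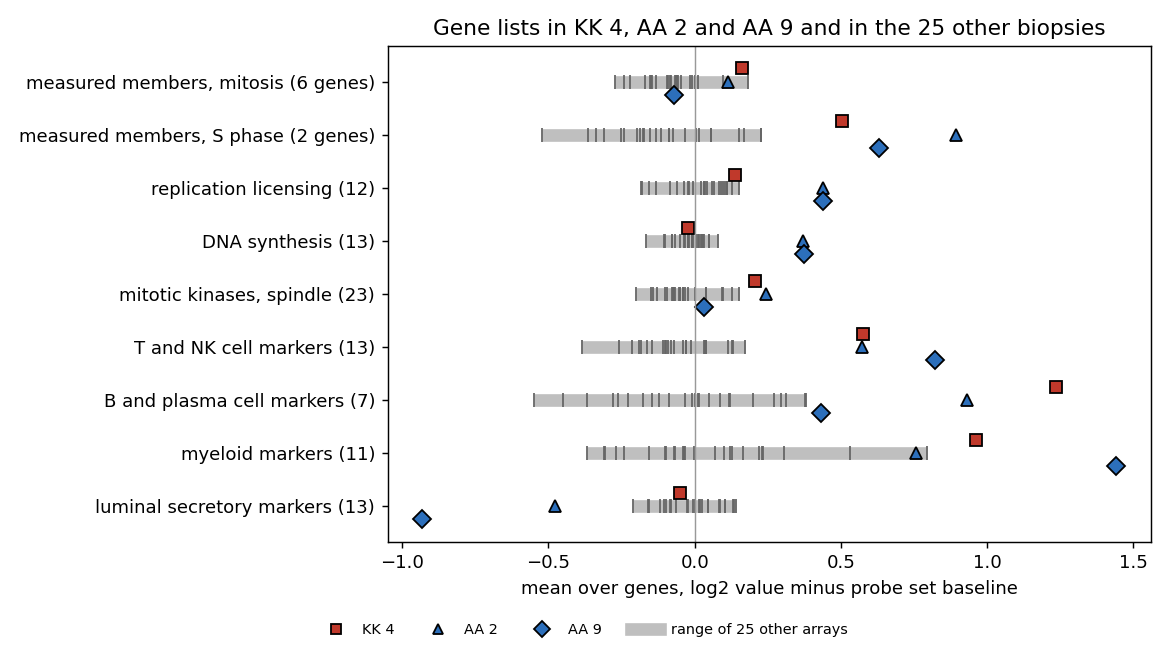
Mean log2 value minus probe set baseline (x axis) of the measured S phase and mitotic genes, of further cell cycle lists and of cell type markers (y axis, with the number of genes) in KK 4, AA 2 and AA 9; grey bars span the other 25 arrays and ticks are single arrays. The S phase genes and the T cell, B cell and, for KK 4 and AA 9, myeloid markers lie beyond the grey range, while the 6 measured mitotic genes lie within it. The list of 23 mitotic genes lies beyond it in KK 4 (0.21) and AA 2 (0.24).

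Further cell cycle genes were taken from 8 lists by role. Across these lists 0 of 132 probe sets passed in any comparison, beside 0% of all probe sets. In the licensing of replication origins, AA 2 and AA 9 both averaged 0.44 over 12 genes, KK 4 0.14 and the others -0.18 to 0.15. In DNA synthesis and nucleotide supply (13 genes), AA 2 and AA 9 averaged 0.37 each, KK 4 -0.02 and the others -0.17 to 0.08, so KK 4 was high for RRM2 and not for this list. The list of mitotic kinases, spindle and checkpoint genes (23 genes) averaged 0.21 in KK 4, 0.24 in AA 2 and 0.03 in AA 9, and -0.20 to 0.15 in the others. CDK inhibitors and growth arrest genes (9 genes) were also highest in AA 2 at 0.56 and AA 9 at 0.37, so genes that hold the cycle back were high in the same arrays as those that replicate DNA. Other lists were high there too. In AA 2 and AA 9 the condensation and proliferation list averaged 0.50 and 0.33, and the ubiquitin ligases 0.22 and 0.33. The E2F and pocket protein list averaged 0.34 and 0.07, and the G1 list -0.0035 and 0.33. MKI67 had no probe set with 1 symbol and was not analysed here.

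Slopes per K allele in these lists changed when AA 2 and AA 9 were left out. Of the 132 slopes, 33 turned sign without that pair, and 62 kept their sign but were smaller by over 1.5 times. Such changes were not counted over all probe sets, so neither count is read as a trait of these lists. With all arrays 10 probe sets had an unadjusted p under 0.05, and without the pair 5 did, those of CCNG1, CDCA8, MELK, POLA1 and RBL2 both times. Over all 24016 probe sets the share at that p with all arrays was 9.16% (4.68% above and 4.48% below 0), and 54% of slopes lay above 0. In numbers, 1123 lay above and 1076 below 0 at that p with all arrays, and 411 and 373 without the pair. The fall in the count was thus not particular to these lists. Without KK 4, 11 of the 132 slopes turned sign and 16 probe sets had an unadjusted p under 0.05. Of these 16, 9 were also under it with all arrays, and that of CDCA8 was not among them. Over all probe sets 1353 then lay above and 1211 below 0 at that p. Where a listed gene had several probe sets and 1 slope is given, it is that of the probe set with the smallest p.

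The licensing genes with the smallest p were GMNN, the inhibitor of licensing, at -0.31 (SE 0.14), MCM6 at -0.38 (SE 0.18) and -0.23 (SE 0.12) in its probe sets, MCM4, like MCM6 a subunit of the replicative helicase, at -0.17 and CDC6, which loads that helicase, at 0.08. Without AA 2 and AA 9 they were -0.12 for GMNN, -0.14 and -0.09 for MCM6, -0.05 for MCM4 and 0.06 for CDC6. None passed (limma adjusted p 0.526 or higher). Of 17 probe sets in this list, 0 were higher and 2 lower at an unadjusted p under 0.05, and the median slope was 0.01 over probe sets, beside 0.0090 over all probe sets, and -0.02 without that pair. In DNA synthesis the smallest p belonged to POLA1, the catalytic subunit of polymerase alpha, at -0.19 (SE 0.07), TYMS, thymidylate synthase, at 0.07 in a dim probe set and -0.15 in another, RFC5, a subunit of the clamp loader, at -0.19 and POLE2, a subunit of polymerase epsilon, at -0.07. Without AA 2 and AA 9, POLA1 stood at -0.12, RFC5 at -0.04, and TYMS at 0.07 and 0.03. The other POLA1 probe set stood at -0.07 with all arrays and -0.0077 without that pair. The other RFC5 probe set had the opposite sign, at 0.09 with all arrays and 0.10 without that pair. In this list 5 of 20 slopes were above 0 with a median of -0.07, and 6 of 20 with a median of -0.01 without that pair. It had 1 probe set below 0 at an unadjusted p under 0.05 both times. The list averaged -0.03 in KK and -0.02 in KA, against 0.06 in AA with all arrays and -0.0083 in AA without AA 2 and AA 9.

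Among mitotic genes, 21 of 33 slopes were above 0, with a median of 0.03 and 1 probe set in each direction at an unadjusted p under 0.05. It was 22 of 33 once AA 2 and AA 9 were left out, with a median of 0.02 and again 1 in each direction. MELK, a kinase of dividing cells, had a slope of -0.27 (SE 0.09) and CDCA8, the borealin subunit of the chromosomal passenger complex, 0.13 (SE 0.05), both dim, and -0.13 and 0.10 without the pair. The other CDCA8 probe set stood at 0.06 (0.02 without the pair). CENPA, the centromeric histone, stood at 0.15 (0.07 without the pair) and TPX2, a spindle assembly factor, at 0.14 (0.03). The other TPX2 probe set stood at 0.03 (0.05 without the pair). In the condensation and proliferation list, which had 0 of 12 at that unadjusted p and a median of 0.01, the histone variant H2AZ1 had a slope of -0.10 (-0.07 without the pair), STMN1, which destabilises microtubules, -0.37 (SE 0.22, and -0.10 without the pair), NCAPH 0.08 and SMC4 -0.06 in a pair of its probe sets and 0.06 in the third (-0.02, 0.02 and 0.0020 without AA 2 and AA 9), the last 2 genes encoding condensin subunits.

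The upstream and brake lists gave no call either. RBL2, the pocket protein p130 of resting cells, had slopes of 0.20 (SE 0.05, limma unadjusted p = 0.00106, adjusted p = 0.526), 0.08 and -0.17 in its 3 probe sets, so they disagreed in sign, and 0.19, 0.03 and -0.01 without AA 2 and AA 9. TFDP1, the partner of E2F factors, stood at -0.18 (SE 0.08, and -0.09 without the pair) and MYBL2, an activator of mitotic genes, at 0.17 (SE 0.08, and 0.05). Of the growth arrest genes, CCNG1, a p53 target, stood at -0.22 (SE 0.08), CDKN2C, an inhibitor of CDK4, at -0.21 (SE 0.10), and the antiproliferative proteins TOB1 at 0.23 and BTG1 at -0.27. Without the pair these were -0.13, -0.12, 0.13 and -0.10. Of the G1 genes, CDK4, the partner of the D cyclins, stood at -0.10, cyclin E1 (CCNE1) at 0.11, and CDK7 and CCNH, the CDK-activating kinase and its cyclin, at -0.14 and -0.08, with 0 of 11 probe sets at an unadjusted p under 0.05. Without the pair CDK4 stood at -0.06, CCNE1 at 0.04, CDK7 at -0.08 and CCNH at -0.0092. The other CDK7 probe set stood at -0.10 with all arrays and 0.03 without the pair. Of the ubiquitin ligase genes, ANAPC5 and ANAPC4, subunits of the anaphase-promoting complex, stood at 0.19 (SE 0.09) and -0.14, the cullin CUL1 at 0.17, and UBE2S, which extends ubiquitin chains for the complex, at 0.16. Without the pair they were 0.12, -0.01, 0.07 and 0.10. The other probe set of ANAPC5 stood at 0.0047, and those of CUL1 at -0.0076 and 0.01. Without the pair these other probe sets stood at 0.03 for ANAPC5 and at -0.0083 and 0.06 for CUL1. In this list 6 of 16 slopes lay above 0 with a median of -0.0053, and 10 of 16 with a median of 0.01 without the pair.

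The 9 probe sets followed each other only loosely from cow to cow. Over the 26 arrays without AA 2 and AA 9, Spearman's rho of the 36 pairs had a median of 0.05 and ranged from -0.26 to 0.60, with 26 pairs above 0 and 6 above 0.3. These correlations are descriptions over arrays that share a tissue mixture and a normalization. UBE2C and CCNB2 had the highest rho at 0.60 (Pearson's r 0.58, and r 0.55 over all 28 arrays). Cyclin B2 protein is destroyed through the complex that UBE2C serves, but these values are of transcripts, and no link between the 2 was tested. PCNA and RRM2, the S phase genes, followed at 0.54 (r 0.47, and r 0.57 over all 28). UBE2C gave 0.40 and 0.36 with the BUB1 probe sets and 0.34 with CCNB1. CDK1 had its highest rho with CCNA2 at 0.23, followed by UBE2C at 0.22. With the B cyclins it was 0.03 (CCNB2) and -0.07 (CCNB1), and UBE2C with CCNA2 had the lowest rho at -0.26. Each probe set against the mean of the other genes gave rho between -0.03 (the BUB1 probe set S1_at) and 0.36 (UBE2C). The 528 pairs within the list of mitotic kinases had a median rho of 0.12.

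**Figure D5:**
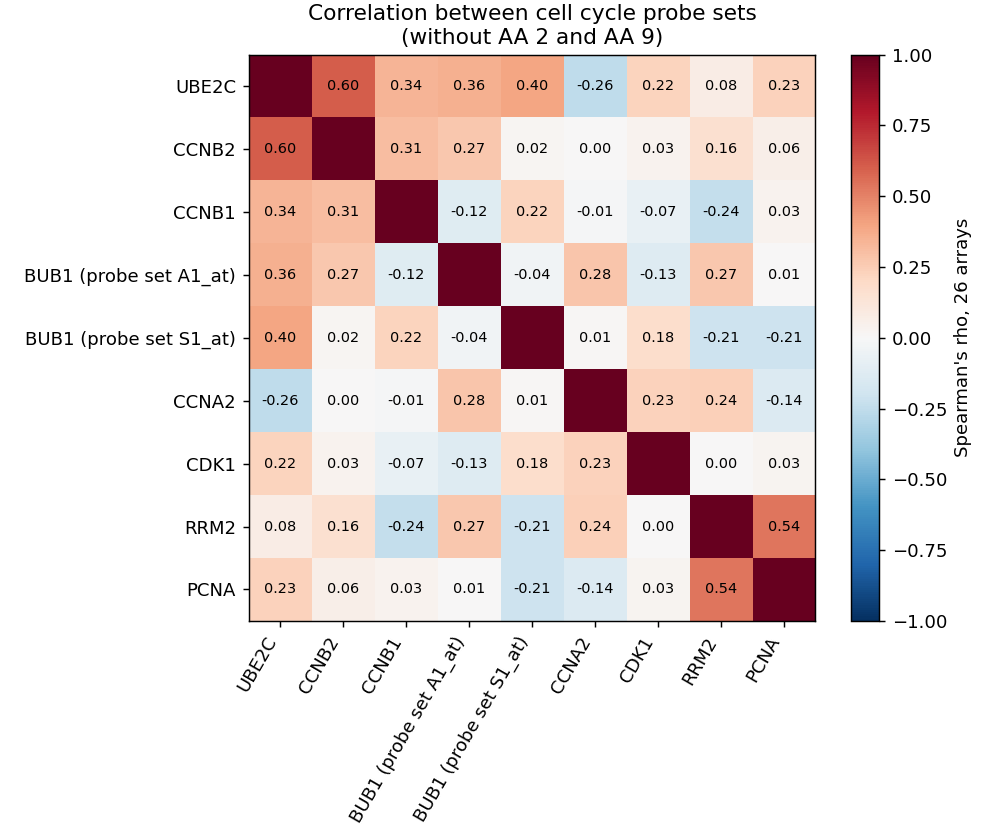
Spearman's rho between each pair of the 9 cell cycle probe sets over 26 arrays (AA 2 and AA 9 left out), printed in each cell and coloured from -1 (blue) to 1 (red). The highest cells are UBE2C with CCNB2 (0.60) and PCNA with RRM2 (0.54); most others lie near 0.

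The spread of each probe set over these 26 arrays set the scale of what could be read. The SD was 0.31 for CDK1, 0.31 for RRM2 and 0.29 for UBE2C, above 83.8%, 83.6% and 80.1% of all probe sets. PCNA had an SD of 0.20, like the median probe set at 0.20. The dim probe sets of CCNB2, CCNA2, CCNB1 and BUB1 had SDs of 0.12 to 0.19, around the median of 0.17 over all dim probe sets. Variation of their size is what a dim probe set of any gene showed on these arrays.

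Genes outside the list whose probe set followed the mean of the 8 genes most closely over the 26 arrays were NCK1, an adaptor protein (rho 0.70, and 0.75 over all 28), ACTL6A, an actin-related subunit of chromatin remodelling complexes (0.69 and 0.73), MIA2 (0.69 and 0.40), SELENOT (0.68 and 0.68) and EEF1E1 (0.67 and 0.46). SEC23IP (0.66 and 0.67), CD38, an ectoenzyme of plasma cells and lymphocytes (0.65 and 0.68), UBE2K (0.64 and 0.50), AMMECR1L (0.63 and 0.57) and EIF2S1, a translation initiation factor (0.63 and 0.68), completed the first 10. By list, the median rho with the mean of the 8 genes was 0.26 for mitotic kinases and spindle genes, with 30 of 33 above 0. It was 0.13 for licensing, 0.09 for DNA synthesis and -0.04 for CDK inhibitors. It was 0.21 for T and natural killer cell markers, 0.21 for B and plasma cell markers and 0.17 for myeloid markers, beside 0.04 for fibroblast, 0.01 for luminal and -0.11 for endothelial markers. Over all probe sets the median was 0.01, with 52.8% above 0. Their range was -0.71 to 0.70, so the first 10 are the upper end of 24016 values, and rho as far from 0 also occurred below 0.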

How the data were processed

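RNA of 1 biopsy per cow was hybridised to 1 array per cow. Bioconductor 2.7 under R 2.13 was the authors' software for preprocessing and statistics, per the labels' protocols. Both RMA and GCRMA are named in the submitters' processing notes, and the sources used here do not say which made the deposited log2 values. These log2 values had a baseline per probe set subtracted, a step no source used here describes. The table held 24128 probe sets, of which 112 were controls. Of the rest, 13292 had 1 gene symbol, 86 several and 10638 none, and 13263 symbols were updated through the RefSeq gene table of assembly ARS-UCD2.0.

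Differences were fitted with limma 3.58.1 in R 4.3.3 (lmFit, eBayes) with a mean per genotype, and as a slope on the number of K alleles, over 24016 probe sets. The fits were tested on simulated data. A gene's value was the mean of its probe sets. A probe set was called dim where over 7 of 28 arrays had values finer than the rounding step of signals above 4 log2 (tolerance 3e-08), and bright where at most 7 had values finer than the step above 8 log2.

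The members and lists were chosen with earlier results of these data known. Every member probe set is named, and of each further list at most 4 genes with the smallest slope p. Also named are the 10 genes most like the member mean by Spearman's rho. Of each marker list at most 3 genes are named, except the luminal secretory list, of which more are named. The secretory, epithelial and immune markers named singly were picked after their values were seen. MZB1 and CD68 had the highest values of their lists in KK 4. The number of arrays limits the precision. The cows are separate animals. Alternatives were quantile normalization, centring of arrays, leaving out AA 2 and AA 9, only the groups compared, array number, robust variances, array weights, leaving out dim probe sets, a threshold of 0.10, 1 probe set per gene and leaving out each array in turn.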

Additional observations from a re-analysis of the deposited data

Results flagged for a closer look

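RRM2 in KK 4 stood far from the other KK cows. Its value of 1.10 lay 1.10 above the highest of the other 3 (-0.0012), and this gap divided by the range of the group was 0.903, above Dixon's critical value for 4 samples. In the KK group 10 values were examined in this way, the 9 probe sets and the mean of the 8 genes, and chance alone marks about 1 group in 20. The mean of the 8 genes in KK 4 did not pass (0.755). PCNA, the other S phase gene, stood at -0.09 in KK 4.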

How the results depend on the processing

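No cell cycle probe set passed in any comparison under any alternative or without any 1 array, and their smallest adjusted p was 0.0570 (CDK1, KA minus AA within array numbers 43 to 56). Without dim probe sets 4 genes remained, with a median of 0.16 for KK minus AA, 0.19 also without AA 2 and AA 9, and 0.03 also without KK 4. Leaving out each array in turn gave medians of -0.11 (without KK 4) to 0.10 (without KK 2) for KK minus AA, -0.02 to 0.03 for KA minus AA, 0.02 to 0.09 for KK minus KA and -0.02 to 0.01 per K allele. Over all probe sets, KA minus AA had 0 calls with all arrays. It had 47 with quantile normalization, 2181 within array numbers 43 to 56, 104 with array weights, 5 without dim probe sets, 12 at a threshold of 0.10, and 0 to 525 without 1 array (525 without AA 1). KK minus KA had 3 with array weights. The cause of these shifts was not tested. The alternatives without AA 2, AA 9 and KK 4 together, and those without dim probe sets that also leave out KK 4 or AA 2 and AA 9, were chosen after seeing the data. Within numbers 43 to 56 no KK array was available. An intensity trend could not be fitted on values without levels, so robust variances were used. Outside the fits that leave out 1 array, the other 155 values recomputed kept their count of calls or moved by less than the spread between arrays.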
